A study of Homo sapiens with 4 samples.

Results

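The genes described here are the ligand TRAIL (TNFSF10), its cell-surface and soluble receptors (TNFRSF10A, TNFRSF10B, TNFRSF10C, TNFRSF10D and TNFRSF11B), the death receptor FAS, the TNF receptors TNFRSF1A and TNFRSF1B, and the related receptor TNFRSF21. They were picked by name, 10 in all, and a gene counted as measured where an array row carried its symbol and no other. That held for 8 of the 10, out of 21469 genes measured this way. TNFRSF10C and TNFRSF1B each had 1 row, which also carried a second symbol (LOC254896 and MIR4632), so no value is given for either. Each of the 8 had 1 row, so no choice between rows was needed.

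Expression was measured on 4 Affymetrix Human Transcriptome Array 2.0 arrays, 1 per sample, of U2OS, a human osteosarcoma cell line. Replicates 2 and 3 were treated with nocodazole for 48 h, and replicates 2 and 3 of the solvent control with DMSO for 48 h. Before treatment, all 4 samples had gone through 24 h without serum, 24 h in thymidine and 3 h of release into drug-free medium, per the labels' protocols, and all 4 titles mention PLKO.1 without saying what it is. The series text calls the replicates biological, and nothing in the labels says that they came from separate cultures, so the p-values measure the spread between these samples only. By its title, the study asked about senescence-associated secreted factors (SASP) in cells that had slipped out of mitosis.

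TRAIL, FAS ligand and TNF are trimeric ligands that cluster their receptors on the cell surface. TNFRSF10A (DR4), TNFRSF10B (DR5), FAS and TNFRSF1A carry a cytoplasmic death domain, through which the adaptors FADD or TRADD assemble complexes that activate caspase-8 or signal to NF-kB. TNFRSF10C and TNFRSF10D bind TRAIL without a working death domain and TNFRSF11B (osteoprotegerin) is secreted, so these are called decoy receptors. Nocodazole, a microtubule poison, arrests cells in mitosis, and the death receptor pathway is 1 of the routes by which cells that stay arrested or slip out of mitosis are known to die.

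No gene of this family passed the test on both scales used. On the values as deposited, all 8 measured genes, TNFSF10 under background included, had changes below 0 (nocodazole minus DMSO), with a median of -0.47 on the log2 scale beside -0.45 over all genes. Quantile normalization gives the 4 arrays 1 distribution and moved the median of all genes to 0.0020. After it 4 of the 8 had changes above 0 and 4 below, with a median of -0.0045. The test was limma's moderated test over all 21469 genes with Benjamini-Hochberg adjustment and a threshold of 0.05, and a gene is said here to have risen or fallen only where it passed in 1 direction on both scales. After quantile normalization limma called 0 of the 8, also 0 at an unadjusted p under 0.05, while 0.289% of all genes were called and 9.38% had an unadjusted p under 0.05. As deposited limma called 4 of the 8 lower (FAS, TNFRSF1A, TNFRSF11B and TNFRSF21) and 0 higher, beside 24.9% of all genes lower and 0.238% higher. Of all genes, 0.242% passed on the deposited and the quantile-normalized values alike. In such bulk samples, fewer cells with a transcript and less of it in each cell cannot be told apart.

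The 4 arrays differed in overall level. The median over all genes was 5.87 and 5.68 in nocodazole replicates 2 and 3, against 6.38 and 6.06 in DMSO replicates 2 and 3, and 155 rows of ERCC controls, which match no human gene, had a median change of -0.42. The median of 23 background control rows, taken as each array's background, was 4.36 and 3.72 in nocodazole replicates 2 and 3, and 4.81 and 4.02 in DMSO replicates 2 and 3. By that measure, 7 of the 8 genes lay above background on every array and TNFSF10 on none. Of all genes, 79.6% to 83.9% lay above it on a given array, so most genes pass this cutoff. Among markers of the cell line's lineage, 7 of 8 measured osteosarcoma and mesenchymal genes were above background on all 4 arrays, the bone sialoprotein gene IBSP being at or below it on all 4. Of 11 measured haematopoietic markers, 8 were above background on all 4 arrays and 3 at or below it on all 4 (PTPRC, the pan-leukocyte gene, MS4A1 and LYZ).

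**Figure D1:**
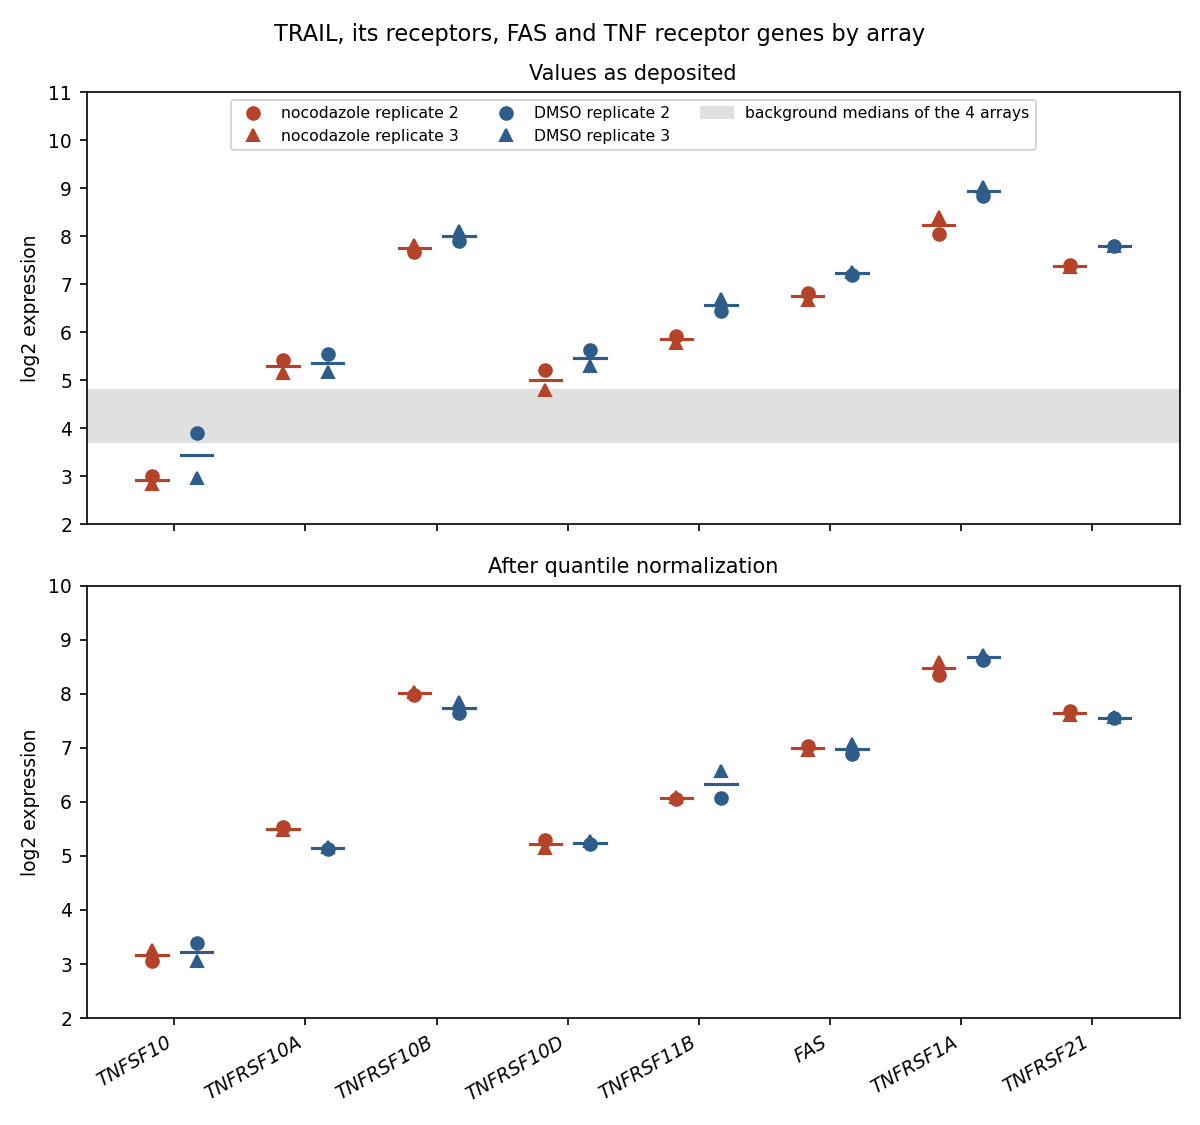
Log2 expression of the 8 measured genes on each array, as deposited (top) and after quantile normalization (bottom); circles are replicate 2, triangles replicate 3, short lines the group means, and the grey band spans the background medians of the 4 arrays. TNFSF10 lies under the background of its own array in every sample. In the lower panel TNFRSF10A, TNFRSF10B and TNFRSF21 are higher in both nocodazole samples than in both DMSO samples, as are 17.7% of all genes.

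Promoter windows of 5 of the 10 genes were found in the RefSeq table (GRCh38.p14), each holding 250 bases before the gene's start and 50 after it. Those of the 4 measured genes among them are shown, the ligand beside FAS, TNFRSF1A and TNFRSF21. These 3 receptors were called lower as deposited, as were 24.9% of all genes, and none was called after quantile normalization. TNFRSF11B, also called lower as deposited, had no window. FAS has 3 windows in the table, for 3 starts, and the one that begins farthest upstream is printed. Capitals mark matches, on either strand, to the TATA box (TATAAA), the GC box (GGGCGG), the CCAAT box (CCAAT), AP-1 (TGANTCA), NF-kB (by its usual consensus) and the cell-cycle homology region (TTTGAA).
TNFSF10 promoter, chr3:172523381-172523680, minus strand: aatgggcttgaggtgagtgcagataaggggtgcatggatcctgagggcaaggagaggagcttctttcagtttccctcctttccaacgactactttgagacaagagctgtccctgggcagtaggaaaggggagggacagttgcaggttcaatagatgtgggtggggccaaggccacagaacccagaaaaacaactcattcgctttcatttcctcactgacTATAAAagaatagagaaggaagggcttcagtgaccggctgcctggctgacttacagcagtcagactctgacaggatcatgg
FAS promoter, chr10:88990548-88990847, plus strand: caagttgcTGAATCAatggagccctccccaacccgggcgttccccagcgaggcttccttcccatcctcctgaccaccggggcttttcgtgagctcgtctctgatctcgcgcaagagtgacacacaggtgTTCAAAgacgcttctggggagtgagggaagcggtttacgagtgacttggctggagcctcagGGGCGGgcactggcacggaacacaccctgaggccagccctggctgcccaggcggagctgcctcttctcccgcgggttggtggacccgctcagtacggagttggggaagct
TNFRSF1A promoter, chr12:6342027-6342326, minus strand: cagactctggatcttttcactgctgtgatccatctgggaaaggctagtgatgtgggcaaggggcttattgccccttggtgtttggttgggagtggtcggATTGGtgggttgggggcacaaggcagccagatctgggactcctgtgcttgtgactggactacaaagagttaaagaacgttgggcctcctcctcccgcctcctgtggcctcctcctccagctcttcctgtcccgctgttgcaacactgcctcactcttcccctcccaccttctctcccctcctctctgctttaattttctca
TNFRSF21 promoter, chr6:47309856-47310155, minus strand: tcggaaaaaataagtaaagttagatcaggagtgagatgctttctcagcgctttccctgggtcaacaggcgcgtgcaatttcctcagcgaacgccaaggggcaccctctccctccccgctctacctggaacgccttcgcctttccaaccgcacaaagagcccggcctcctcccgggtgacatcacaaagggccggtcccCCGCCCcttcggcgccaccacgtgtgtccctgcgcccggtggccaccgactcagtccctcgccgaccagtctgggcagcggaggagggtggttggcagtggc
The TNFSF10 window held a TATA box whose first base is at position -31, a motif found in 11.5% of all 35116 windows. The FAS window held a GC box at -60, an AP-1 match at -242 and a cell-cycle homology match at -121, motifs found in 45%, 7.71% and 15.2% of all windows. The other FAS windows held a GC box too, and the one farthest downstream was the only one of the 3 with an NF-kB match (11.3% of all windows). TNFRSF1A had a CCAAT box at -151 on the opposite strand (34.6% of all windows) and TNFRSF21 a GC box at -52 on the opposite strand. No motif was shared by all 3 of FAS, TNFRSF1A and TNFRSF21. These matches are of letters only, and no binding was measured.

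TNFSF10, the gene of the ligand TRAIL, was not measured above background in either group. Its deposited log2 expression was 3.02 and 2.84 in nocodazole replicates 2 and 3, and 3.91 and 2.97 in DMSO replicates 2 and 3. Set against the background median of their own array, these 4 values ran from -1.34 to -0.88. No fold change is given, since neither group has a measured level, and a change in this gene was not detectable on these arrays.

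Of the 2 TRAIL death receptors, TNFRSF10A had values as deposited of 5.43 and 5.16 with nocodazole, against 5.55 and 5.18 with DMSO. These groups overlapped, and each array lay 0.75 to 1.44 above its background. After quantile normalization TNFRSF10A had 5.53 and 5.49 with nocodazole and 5.14 and 5.17 with DMSO, groups that did not overlap. Its log2 fold change was 0.35 ± 0.16 (SE, n = 2 per group; 95% interval -0.02 to 0.73; limma adjusted p = 0.569), 0.34 after median centring of each array and -0.08 ± 0.32 as deposited (limma adjusted p = 0.845), so its direction depended on the scaling. Of the 7 genes above background it had the largest change after quantile normalization, a 1.28-fold one. The genes with the smallest root mean square difference from it over the 4 quantile-normalized arrays, each gene centred on its mean, were TRIB3, EXOSC5 and RNY4P2, at 0.0067, 0.012 and 0.012. These 3 did not pass either (limma adjusted p = 0.353, 0.245 and 0.621).

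TNFRSF10B, the death receptor also known as a target of p53 and of the stress factor CHOP, had 7.68 and 7.82 with nocodazole, against 7.90 and 8.11 with DMSO, as deposited. Both nocodazole values were the lower ones. After quantile normalization the order turned, with 7.98 and 8.04 in nocodazole cells and 7.64 and 7.84 in DMSO cells. The log2 fold change was 0.26 ± 0.12 (SE, n = 2 per group; 95% interval -0.02 to 0.55; limma adjusted p = 0.586) there, 0.16 ± 0.31 after median centring and -0.26 ± 0.15 as deposited (limma adjusted p = 0.183). Without DMSO replicate 2 it was 0.17 after quantile normalization. TNFRSF10A and TNFRSF10B, with TNFRSF21, were the 3 of 8 genes whose groups did not overlap and were higher with nocodazole after quantile normalization, and 17.7% of all genes showed that pattern. As deposited 6 of the 8 did not overlap and were lower with nocodazole, a pattern of 66.3% of all genes.

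The decoy receptor gene TNFRSF10D was dim. It had 5.21 and 4.79 with nocodazole, against 5.63 and 5.29 with DMSO, as deposited, which is 0.82 to 1.27 above background. The groups did not overlap as deposited and overlapped after quantile normalization, where the nocodazole values were 5.30 and 5.14 and the DMSO values 5.21 and 5.27. The log2 fold change was -0.02 ± 0.17 after quantile normalization (95% interval -0.42 to 0.37; limma adjusted p = 0.994) and -0.46 ± 0.34 as deposited (limma adjusted p = 0.283).

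TNFRSF11B encodes osteoprotegerin, a secreted receptor of osteoblast-lineage cells that binds TRAIL and the osteoclast factor RANKL. As deposited it had 5.92 and 5.79 with nocodazole, against 6.45 and 6.69 with DMSO, a log2 fold change of -0.72 ± 0.22 (SE, n = 2 per group; limma adjusted p = 0.0203). After quantile normalization the nocodazole values were 6.05 and 6.10 and the DMSO values 6.07 and 6.57. DMSO replicate 2 then lay between the nocodazole arrays and DMSO replicate 3 above them, and the log2 fold change was -0.25 ± 0.19 (95% interval -0.69 to 0.19; limma adjusted p = 0.819). It was -0.0015 without DMSO replicate 3 and -0.50 without DMSO replicate 2, and its 2 nocodazole arrays differed by less than its 2 DMSO arrays.

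An offset shared by all rows of an array cancels in the difference between 2 of its rows. Changes of death receptors and decoys were therefore also set against each other within arrays. Array effects that vary with intensity do not cancel. Quantile normalization moved TNFRSF10A in DMSO replicates 2 and 3 from 5.55 and 5.18 to 5.14 and 5.17. It moved TNFRSF10B there from 7.90 and 8.11 to 7.64 and 7.84. The differences below, as deposited, can thus still depend on the array. Levels of different rows cannot be compared, and only the shift of such a difference between groups is read. TNFRSF10A minus TNFRSF10D was 0.22 and 0.37 with nocodazole and -0.07 and -0.11 with DMSO, a shift of 0.39. TNFRSF10B minus TNFRSF11B was 1.76 and 2.03 with nocodazole and 1.45 and 1.42 with DMSO, a shift of 0.46. TNFRSF10A minus TNFRSF11B was -0.49 and -0.63 with nocodazole and -0.90 and -1.51 with DMSO, a shift of 0.64 without overlap of the groups, which was 0.34 without DMSO replicate 3. TNFRSF10B minus TNFRSF10D shifted by 0.20 with overlap, and by -0.07 without DMSO replicate 2 or without nocodazole replicate 3. With all 4 arrays the 4 shifts were above 0. They share their rows and are given as descriptions with no test. How often the groups of other gene pairs separate was not computed. With 2 arrays per group an exact two-sided permutation test cannot go below p = 0.333.

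**Figure D2:**
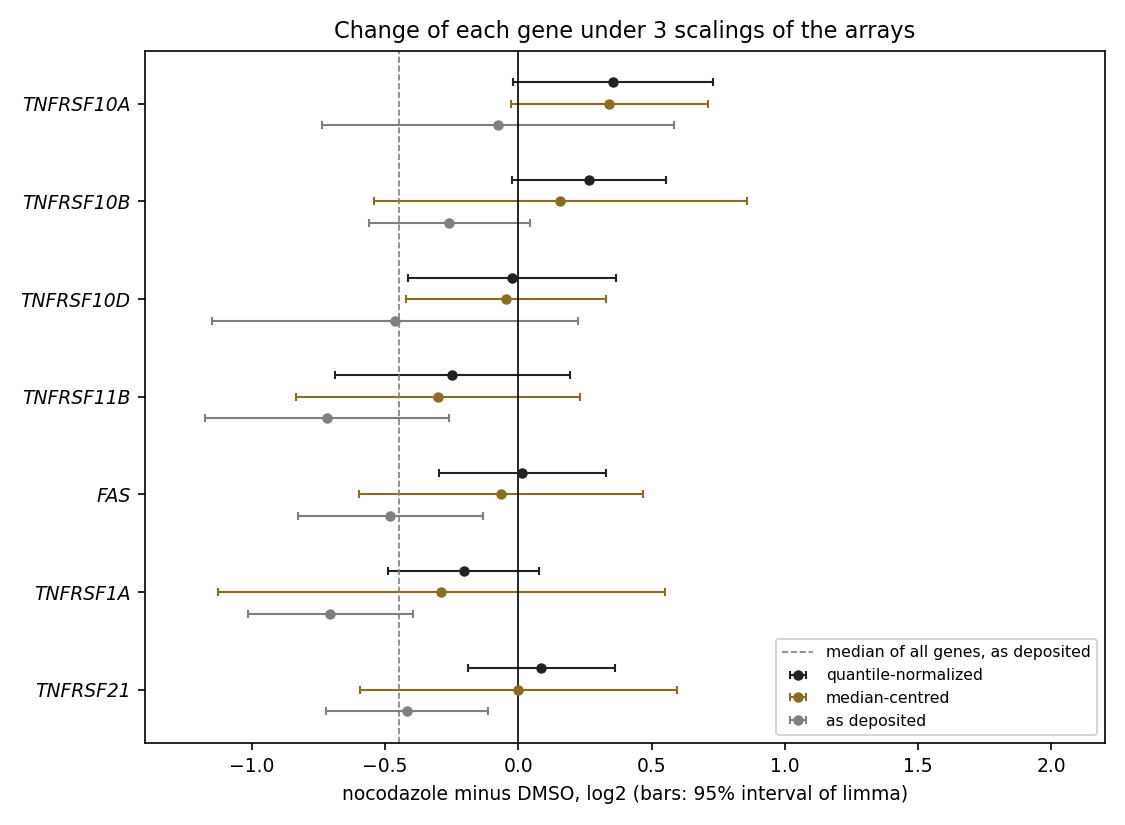
Log2 change, nocodazole minus DMSO, of the 7 genes above background, after quantile normalization, after median centring and as deposited; points are limma estimates from 2 arrays per group, bars their 95% intervals, and the dashed line the median change of all genes as deposited (-0.45). All quantile-normalized and median-centred intervals include 0, and those of TNFRSF11B, FAS, TNFRSF1A and TNFRSF21 as deposited do not.

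FAS, the receptor of FAS ligand, had 6.81 and 6.67 with nocodazole, against 7.20 and 7.25 with DMSO, as deposited. The log2 fold change of -0.48 ± 0.17 was called (SE, n = 2 per group; limma adjusted p = 0.0380) and lay close to the median of all genes, -0.03 from it. After quantile normalization FAS had 7.03 and 6.95 with nocodazole and 6.89 and 7.06 with DMSO. Both nocodazole values lay between the DMSO values, and the log2 fold change was 0.02 ± 0.14 (95% interval -0.30 to 0.33; limma adjusted p = 0.996), and -0.06 after median centring.

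TNFRSF1A, the main receptor of TNF, was measured at 8.05 and 8.40 with nocodazole, against 8.83 and 9.03 with DMSO, as deposited. These groups did not overlap. The log2 fold change was -0.71 ± 0.15 (SE, n = 2 per group; limma adjusted p = 0.00157), the smallest adjusted p of the family, and it lay -0.26 from the median of all genes. After quantile normalization TNFRSF1A had 8.35 and 8.59 with nocodazole and 8.63 and 8.72 with DMSO, with no overlap, and was the 1 gene of the 8 with that lower pattern, which 18.7% of all genes had. Its log2 fold change was then -0.21 ± 0.12 (95% interval -0.49 to 0.08; limma adjusted p = 0.708), and -0.29 ± 0.37 after median centring. After quantile normalization it was -0.088 without nocodazole replicate 2 and -0.31 without nocodazole replicate 3. Within arrays, TNFRSF10B minus TNFRSF1A was -0.37 and -0.58 with nocodazole and -0.93 and -0.92 with DMSO, a shift of 0.45. TNFRSF10B minus FAS shifted by 0.22. TNFRSF10A minus TNFRSF10B shifted by 0.18 with overlap of the groups, and by -0.02 without nocodazole replicate 2. These shifts were not tested either.

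TNFRSF21 (death receptor 6), a receptor with a death domain that has been studied in neurons and lymphocytes, had the smallest SDs of the 8 genes as deposited. It had 7.41 and 7.37 with nocodazole, against 7.80 and 7.80 with DMSO, as deposited, a log2 fold change of -0.42 ± 0.15 (SE, n = 2 per group; limma adjusted p = 0.0399). After quantile normalization it had 7.68 and 7.60 with nocodazole and 7.54 and 7.56 with DMSO. The nocodazole values were then the higher ones, by 0.09 ± 0.12 (95% interval -0.19 to 0.36; limma adjusted p = 0.943), and after median centring the change was -0.00017. Without nocodazole replicate 2 the quantile-normalized change was 0.051.

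Leaving out 1 array ended most of the calls made as deposited. Without nocodazole replicate 2, nocodazole replicate 3, DMSO replicate 2 or DMSO replicate 3, limma's adjusted p as deposited was 0.169, 0.416, 0.0645 and 0.0672 for FAS and 0.194, 0.309, 0.106 and 0.0635 for TNFRSF21, in that order. TNFRSF11B passed only without DMSO replicate 2 (limma adjusted p = 0.0109), and TNFRSF1A passed except without nocodazole replicate 2 (limma adjusted p = 0.0621). The log2 fold changes as deposited ran from -0.55 to -0.41 for FAS and from -0.44 to -0.40 for TNFRSF21 over the same 4 fits. Of all genes, limma called 7.42%, 9.77%, 16.9% and 36.2% lower in these fits, in the same order. The fits were added after the data were seen, and in them the group with 1 array is assumed to vary like the other.

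**Figure D3:**
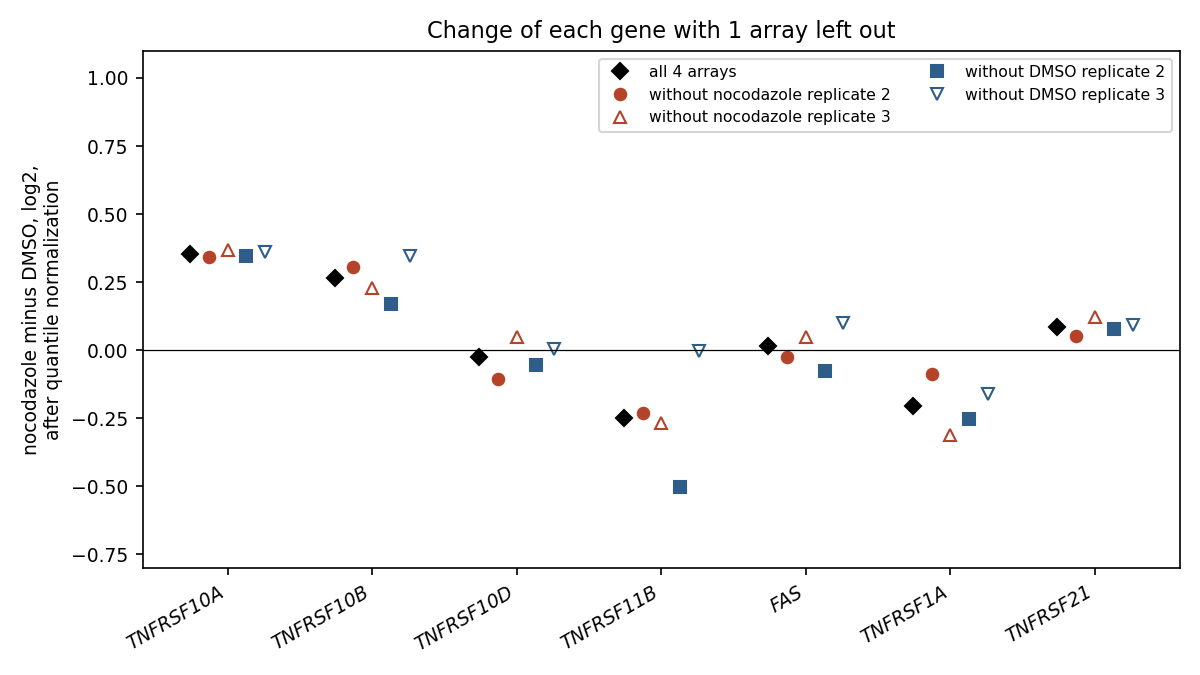
Log2 change, nocodazole minus DMSO, of the 7 genes above background after quantile normalization, with all 4 arrays (diamonds) and with each array left out in turn. TNFRSF10A stays between 0.34 and 0.37, TNFRSF11B runs from -0.50 to -0.0015, and TNFRSF10D and FAS have values on both sides of 0.

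The intervals limit what these arrays could show. The SE of the 7 genes above background ran from 0.12 to 0.19 after quantile normalization, and the smallest change among the 62 genes called on that scale was 0.67. The 95% intervals of the 7 together ran from -0.69, the lower bound of TNFRSF11B, to 0.73, the upper bound of TNFRSF10A.

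In 7 lists of adaptors, ligands, other receptors, proteases and regulators, limma called 0 of 76 measured genes after quantile normalization, against 0.289% of all genes, and 11 of the 76 (14.5%) had an unadjusted p under 0.05, against 9.38% of all genes. As deposited 21 of the 76 were called lower (27.6%, against 24.9% of all genes) and 0 higher. The median change of the 76 was 0.05 after quantile normalization.

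Of the adaptors and enzymes that dock on these receptors, 17 of 23 were measured, with a median of 0.01 after quantile normalization. As deposited 8 of the 17 were called lower, beside 24.9% of all genes. FADD, the adaptor of FAS and the TRAIL receptors, had 7.62 and 7.49 with nocodazole, against 8.29 and 7.91 with DMSO, as deposited, and -0.05 ± 0.16 as its log2 fold change with quantile normalization (limma adjusted p = 0.987). TRADD, the adaptor of TNFRSF1A, had a log2 fold change of -0.17 ± 0.12, with groups that did not overlap on either scale. CASP8, the initiator caspase that FADD recruits, had one of -0.08 ± 0.17, while its relative CASP10 was at or below background on all 4 arrays. TRAF1, a TRAF-family adaptor induced by NF-kB, had the highest change of the list, 0.86 ± 0.13 (limma adjusted p = 0.0585), which missed the threshold. TRAF1 as deposited had 6.82 and 6.80 with nocodazole, against 6.61 and 6.22 with DMSO. Without dim genes, which left 17899 genes to adjust over, TRAF1 passed (limma adjusted p = 0.0344). In that setting limma called 76 of all genes higher and 67 lower. TRAF1 did not pass as deposited (0.39, limma adjusted p = 0.133) or after median centring (limma adjusted p = 0.353), so it is not said to have risen. TAB3, a partner of the kinase TAK1, had the lowest change, -0.20 ± 0.21. CFLAR, RIPK1 and TRAF2 were not analysed here.

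Among the ligands of the TNF superfamily, 15 of 17 were measured and 8 lay above background on all 4 arrays. TNF had 5.43 and 5.53 with nocodazole, against 5.64 and 5.40 with DMSO, as deposited, and its log2 fold change was 0.38 ± 0.18 with quantile normalization (limma adjusted p = 0.587) and of -0.04 as deposited. LTA, which encodes lymphotoxin alpha, had one of 0.09 ± 0.20, and -0.33 as deposited. FASLG and TNFSF11, which encode FAS ligand and RANKL, were above background on 1 array each, and no change is given. TNFSF15 had the highest change, 0.76 ± 0.22 (limma adjusted p = 0.296), and TNFSF9, the ligand of the costimulatory receptor 4-1BB, the lowest change, -0.30 ± 0.12 (limma adjusted p = 0.485). TNFSF15 lay only 0.19 and 0.80 above background in DMSO replicates 2 and 3. TNFSF9 was called lower as deposited, at -0.80 (limma adjusted p = 0.000519).

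The other receptors of the superfamily numbered 16 of 20 measured. Limma called 0 of the 16 as deposited, where 24.9% of all genes were called lower. After quantile normalization it called 0, against 0.289% of all genes, and 1 had an unadjusted p under 0.05, against 9.38%. The median of the 16 was 0.06 after quantile normalization. The changes ran from -0.10 for TNFRSF11A, the receptor of RANKL, to 0.38 for TNFRSF9, or 4-1BB, which was at -0.05 as deposited. Of the genes of receptor shedding, 5 of 6 were measured. ADAM17, the protease that cleaves TNF and its receptors from the cell surface, had the highest change, 0.11 ± 0.16 (-0.38 as deposited), and ERAP1 the lowest change, -0.23 ± 0.15.

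Downstream, 9 of 12 genes of mitochondrial amplification and execution were measured and 3 were called lower as deposited, beside 24.9% of all genes. CASP6, an executioner caspase, had 6.32 and 6.41 with nocodazole, against 7.54 and 7.04 with DMSO, as deposited, and its log2 fold change was -0.48 ± 0.17 with quantile normalization (limma adjusted p = 0.418). HTRA2, a mitochondrial protease, had the highest change there, 0.18 ± 0.13, and -0.30 as deposited. Of the necroptosis genes 3 of 4 were measured, with MLKL, the pore-forming effector, at 0.46 ± 0.20 (limma adjusted p = 0.526), -0.01 as deposited, and its kinase RIPK3 at -0.07 ± 0.17.

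Transcription factors linked to TRAIL receptor and FAS genes had the highest median of the 7 lists, 0.22 over 11 of 14 measured, beside 0.0020 for all genes. Limma called 0 of the 11 after quantile normalization, against 0.289% of all genes. On that scale 3 of the 11 had an unadjusted p under 0.05, against 9.38% of all genes. As deposited the median of the 11 was -0.29, against -0.45 for all genes. Limma called 5 of them lower on that scale (SP1, YY1, STAT3, RELA and FOXO3), beside 24.9% of all genes. DDIT3, which encodes CHOP, had the highest change, with 4.95 and 4.98 with nocodazole, against 4.91 and 4.34 with DMSO, as deposited. DDIT3 was dim, only 0.10 and 0.32 above background in DMSO replicates 2 and 3, and 0.60 and 1.26 in nocodazole replicates 2 and 3. Its log2 fold change was 0.76 ± 0.19 after quantile normalization (limma adjusted p = 0.212) and 0.35 as deposited (limma adjusted p = 0.458). SP1, whose protein binds GC boxes, had the lowest change, -0.29 ± 0.13 (limma adjusted p = 0.540), and was called lower as deposited, at -0.81.

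**Figure D4:**
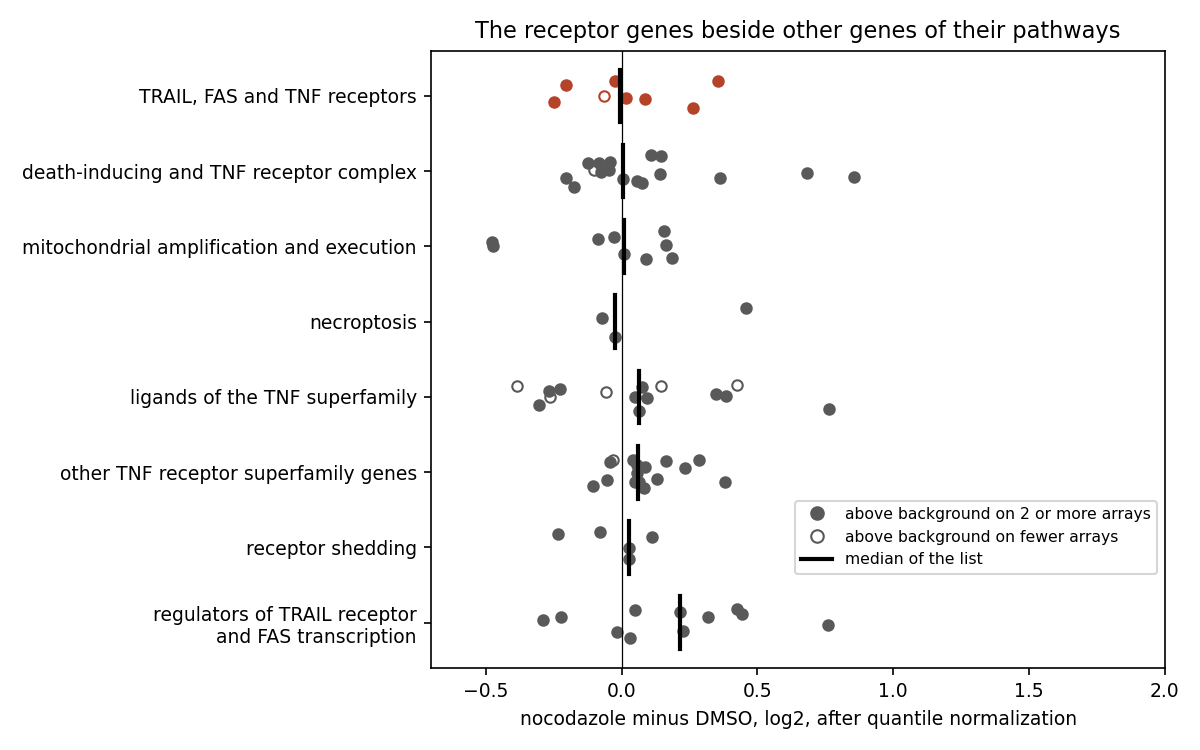
Log2 change, nocodazole minus DMSO, after quantile normalization, of each measured gene of the TRAIL, FAS and TNF receptor family (top row) and of 7 lists from the same pathways; open circles are genes above background on fewer than 2 arrays and vertical bars the list medians. The family's 8 genes lie between -0.25 and 0.35, around a median of -0.0045.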

How the data were processed

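The authors deposited log2 expression values, with a column for each array. Partek 7.0, RMA and hg19 are named in the submitters' processing notes, without their settings. RMA and the values' range, 0.50 to 14.3, gave the log base. Of 65535 rows, 1530 controls were left out, 21771 of the others had 1 gene symbol, 1328 several and 40906 none. Where a gene had more than 1 row (288 genes), the one with the highest mean was used, which left 21469 genes.

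Tests were limma 3.58.1 (R 4.3.3; lmFit, and eBayes with a variance trend), two-sided, without a block, on values after normalizeQuantiles, with intervals of 95%. Fits on the deposited and the median-centred values, without a trend, with a replicate block, without dim genes (above background on fewer than 2 arrays), with row means, with values raised to background and with each array left out were alternatives. The steps were tested on simulated data, whose noise was changed from single-gene SDs to limma's moderated spread after the first version recovered few of the smaller changes and missed many of the larger. How often a true change goes uncalled with 2 arrays per group depends on that choice. The number of arrays limits the precision. Members and lists were chosen with earlier results of these data known. Named were all members, the highest and lowest change of each list among genes above background on 2 or more arrays, genes called on both scales, and genes acting directly on a member. The marker genes, and 4 of the 5 regulators given as called lower as deposited (YY1, STAT3, RELA and FOXO3), were named after their values were seen.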

Additional observations from a re-analysis of the deposited data

How the results depend on the processing

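The median change of the 8 genes, -0.0045 after quantile normalization, was -0.47 as deposited. On the deposited values 4 of the 8 were called lower in place of 0, and 5341 of all genes in place of 21, while the reading turned to -0.076 for TNFRSF10A, -0.26 for TNFRSF10B, -0.48 for FAS and -0.42 for TNFRSF21. After median centring FAS was at -0.064 and TNFRSF21 at -0.00017, and of all genes 19 were called higher and 1 lower, against 41 and 21 in the main analysis. For all genes, calls higher and lower were 10 and 0 without a variance trend, 76 and 67 without dim genes, and 3 and 5 with values raised to background. No family gene was called under median centring, under these 3 settings or with row means. In these fits limma gave 0 or 1 of the 8 an unadjusted p under 0.05, against 5.42% to 10.1% of all genes. Row means gave 46 calls higher and 26 lower over all genes. With the replicate block 26 genes were called higher and 11 lower, and 0 of the family (2 of 8 at an unadjusted p under 0.05, and 14.7% of all genes); the correlation of the replicates' deviations between the groups was 0.22 over genes after quantile normalization and 0.41 as deposited, and the samples share only a number. With 1 array left out the family's median ran from 0.0056 to 0.050, TNFRSF10D from -0.11 to 0.05 and FAS from -0.075 to 0.099, and 0 genes of all were called higher and 0 lower in each such fit after quantile normalization (limma, 1169 to 1515 genes and 0 or 1 of the 8 at an unadjusted p under 0.05); the group with 1 array leaves fewer samples for the spread. With each array left out as deposited, a choice made after seeing the data, 0 to 2 of the 8 were called lower, and 7.42% to 36.2% of all genes. TNFSF10 had no value with values raised to background, since all 4 arrays then sit at it. Signal over background limits TNFSF10, and little above it TNFRSF10A and TNFRSF10D.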

Other observations

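Of 8 measured lineage markers of bone and mesenchyme, SPARC and COL1A1, matrix genes of osteoblasts, had log2 fold changes of -0.63 ± 0.11 and -0.66 ± 0.12 after quantile normalization (limma adjusted p = 0.0736 and 0.0786), and both were called lower as deposited. The list went both ways on the quantile-normalized scale, with 4 of the 8 above 0 and 4 below. ALPL, the alkaline phosphatase gene, was at 0.43 ± 0.13 (limma adjusted p = 0.319), with groups that did not overlap, and at -0.04 as deposited. Limma called 0 of the 8 after quantile normalization (5 at an unadjusted p under 0.05, against 9.38% of all genes). As deposited 4 were called lower, beside 24.9% of all genes. All 6 epithelial markers, the keratin genes KRT8 and KRT18 among them, were above background on all 4 arrays. Of all genes, 79.6% to 83.9% lay above it on a given array. CD68, a lysosomal gene of macrophages, was the 1 of 11 haematopoietic markers called after quantile normalization, beside 0.289% of all genes. Its log2 fold change there was 0.76 ± 0.11 (limma adjusted p = 0.0486). CD68 did not pass as deposited (limma adjusted p = 0.194) or after median centring (limma adjusted p = 0.99).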
